A study of Mus musculus with 18 samples.

Results

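In 10T1/2 cells, 118 of the 54532 genes in the count table were silent on one side of the comparison between WT cells and 2 FOXS1 KO clones. A gene counted as switched off when its reads summed to at least 100 over the 6 WT libraries and to 0 over the 6 libraries of clone 1 or the 6 libraries of clone 2. It counted as switched on when it had 0 reads in WT and at least 200 over the 12 clone libraries. The numbers alone took 134 genes, and 16 of them were left out by name, as members of large families (such as collagens, Hox and Fox factors, cadherins and metalloproteases) or as single genes. Of the 118, 107 were switched off and 11 were switched on. Among those switched off, 27 had no count in either clone, 37 had none in clone 1 only and 43 had none in clone 2 only. The genes were chosen by these counts, so the difference between clones and WT is a description here and was not tested.

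The cells are 10T1/2, a mouse embryonic fibroblast line that can form adipocytes, grown as WT cells or as FOXS1 KO clones 1 and 2. Both clones came from cells transfected with guide pairs against the Foxs1 exon and Cas9, selected with puromycin and grown up from single cells, whereas WT cells were not cloned in this way as far as the sources state. Each genotype was sampled uninduced and TGF-β1 + DMII stimulated (1 nM TGF-β1 for 12 h, then the adipogenic mix DMII of dexamethasone, IBMX, insulin and indomethacin for 48 h), with 3 libraries in each of the 6 groups. A clone is 1 isolate, so its libraries measure spread within that isolate, and an effect of the edit and a trait of the founder cell cannot be told apart.

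A gene that is fully silent in one cell and active in another of the same line is usually held in that state by means that are copied when cells divide. DNA methylation at promoters rich in CpG dinucleotides, Polycomb marks and loss of the DNA itself are the known ones. Imprinted genes are a special case, since only the copy from one parent is active and a single further event leaves no active copy. Cells grown up from a single founder share its state, while an uncloned culture is a mixture.

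Library totals ran from 15576685 to 42005596 counts. Foxs1 itself was counted at 2.23 CPM (counts per 1000000 reads of the TMM-scaled library) in uninduced and 2.51 in stimulated WT cells, and at 22.6 to 54.5 CPM as group means in the clones. The targeted gene was thus higher in the libraries labelled FOXS1 KO, which a total per gene cannot relate to the edit, so every direction below rests on the labels. According to the paper, the FOXS1 protein was absent from both clones on a western blot, and the edited locus was checked by sequencing DNA. RNA totals measure neither of these. The 11 fibroblast markers checked summed to between 40200 and 104000 CPM in every library, a sum carried by the collagens, Fn1 and Vim. Single markers differed from WT in uninduced cells. Thy1 averaged 59.6 CPM in WT, 184 in clone 1 and 0.616 in clone 2, and Pdgfra (log2 fold changes -1.60 and -1.26) and Lum (-2.61 and -1.17) were called lower in both clones. The 6 leukocyte markers summed to 5.7 to 7.07 CPM in uninduced clones and 0.99 to 2.15 in uninduced WT cells, mostly through Lyz2 (0.731 CPM in WT, 5.59 in clone 1, 4.65 in clone 2), while Ptprc had no count. The 6 endothelial markers summed to 0.563 to 1.27 and 5.03 to 7.92 CPM, mostly through Tek (5.91 CPM in WT, 0.384 and 0.398 in the clones), while Kdr and Cldn5 were at or near 0. The 7 adipocyte markers reached 30.5 to 43.0 CPM in stimulated clone 1, 2.71 to 4.64 in stimulated clone 2 and at most 1.22 in stimulated WT cells. The part of these in the results was not tested. In bulk RNA a lower share of cells of one kind and less RNA per cell cannot be told apart.

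The promoters of a few genes on which the results turn are printed here, 1 set for each pattern. Ntrk2, St8sia2 and Meg3 had no count in either clone, Lrp3 and Artn none in clone 1, Prickle1 and Mgmt none in clone 2, and St8sia4 none in WT. Each run is the 250 bases before the transcription start in RefSeq (GRCm38.p6), written 5′ to 3′ on the gene's own strand, with CpG dinucleotides in capitals. The positions are chr13:58806319-58806568, plus strand for Ntrk2, chr7:74013683-74013932, minus strand for St8sia2, chr12:109540746-109540995, plus strand for Meg3, chr7:35215346-35215595, minus strand for Lrp3, chr4:117929764-117930013, minus strand for Artn, chr15:93595903-93596152, minus strand for Prickle1, chr7:136894336-136894585, plus strand for Mgmt and chr1:95667595-95667844, minus strand for St8sia4.
Ntrk2: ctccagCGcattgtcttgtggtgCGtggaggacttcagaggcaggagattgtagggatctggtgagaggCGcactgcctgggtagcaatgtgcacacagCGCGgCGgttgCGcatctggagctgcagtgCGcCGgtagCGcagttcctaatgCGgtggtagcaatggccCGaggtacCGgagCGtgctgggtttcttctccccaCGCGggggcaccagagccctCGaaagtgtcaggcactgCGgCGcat
St8sia2: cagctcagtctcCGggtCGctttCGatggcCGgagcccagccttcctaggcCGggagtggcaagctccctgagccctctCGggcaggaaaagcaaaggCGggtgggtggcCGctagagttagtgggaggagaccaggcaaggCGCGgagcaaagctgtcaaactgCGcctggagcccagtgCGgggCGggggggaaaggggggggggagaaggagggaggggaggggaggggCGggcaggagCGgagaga
Meg3: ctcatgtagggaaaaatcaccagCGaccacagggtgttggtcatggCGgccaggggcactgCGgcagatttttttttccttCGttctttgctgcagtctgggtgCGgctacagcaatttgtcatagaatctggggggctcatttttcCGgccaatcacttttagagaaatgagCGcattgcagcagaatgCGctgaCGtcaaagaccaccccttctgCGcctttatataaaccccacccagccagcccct
Lrp3: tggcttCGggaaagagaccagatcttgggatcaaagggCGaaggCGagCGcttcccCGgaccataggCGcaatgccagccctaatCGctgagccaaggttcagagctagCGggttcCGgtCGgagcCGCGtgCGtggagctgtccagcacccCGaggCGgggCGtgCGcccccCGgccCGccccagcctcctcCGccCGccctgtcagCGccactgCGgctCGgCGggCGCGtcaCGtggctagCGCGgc
Artn: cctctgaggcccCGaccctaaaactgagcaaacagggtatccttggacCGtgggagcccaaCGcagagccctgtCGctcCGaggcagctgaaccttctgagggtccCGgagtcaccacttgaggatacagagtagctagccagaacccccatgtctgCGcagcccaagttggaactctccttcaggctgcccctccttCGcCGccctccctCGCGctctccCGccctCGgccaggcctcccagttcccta
Prickle1: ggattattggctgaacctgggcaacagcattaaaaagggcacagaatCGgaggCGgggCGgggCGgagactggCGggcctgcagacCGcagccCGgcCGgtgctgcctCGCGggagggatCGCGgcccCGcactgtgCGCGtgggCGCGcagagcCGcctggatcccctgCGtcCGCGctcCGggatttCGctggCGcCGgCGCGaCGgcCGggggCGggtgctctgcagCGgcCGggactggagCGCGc
Mgmt: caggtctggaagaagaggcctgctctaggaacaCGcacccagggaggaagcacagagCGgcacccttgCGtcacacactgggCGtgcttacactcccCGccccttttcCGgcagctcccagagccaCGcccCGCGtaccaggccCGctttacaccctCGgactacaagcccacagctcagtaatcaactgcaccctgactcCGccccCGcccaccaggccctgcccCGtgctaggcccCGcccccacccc
St8sia4: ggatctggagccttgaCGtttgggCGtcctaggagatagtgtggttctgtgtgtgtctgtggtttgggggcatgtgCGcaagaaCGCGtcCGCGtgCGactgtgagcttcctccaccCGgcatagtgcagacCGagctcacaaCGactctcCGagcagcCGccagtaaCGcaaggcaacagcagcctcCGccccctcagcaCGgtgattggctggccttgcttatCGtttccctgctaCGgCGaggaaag
The run of Prickle1 held 34 CpG and that of Lrp3 30, against 10 in Meg3 and 13 in Artn. The remaining 4 held 15 or 19. The starts lay within 28 bp of the gene ends given in the count table, except for Lrp3 at 153 bp.

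The switched-off genes were of low to middling level in WT. Their mean over the WT libraries ran from 0.798 to 72.5 CPM (median 2.73), and the medians of the 3 classes were 2.68, 2.82 and 2.73 CPM. Of the 107, 98 were counted in every WT library. They made up 0.855% of the 12517 genes with a WT sum of at least 100, and 110 of all 118 genes were protein coding. All 118 passed the filter on low counts. Genes silent in both clones did so only through WT, and switched-on genes only through the clones. Those silent in 1 clone passed through WT, the clone that kept them, or both. A total of 3 counts over the 6 libraries, used as the floor where a genotype had none, corresponds to 0.0234 CPM in WT, 0.0239 in clone 1 and 0.0223 in clone 2. At the edge of the rule, Mlf1, Ptchd4 and Klhl13 were just inside with WT sums of 102, 103 and 104, and Nppc, Stox2 and Wasf3 just outside with 97, 97 and 96.

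**Figure D1:**
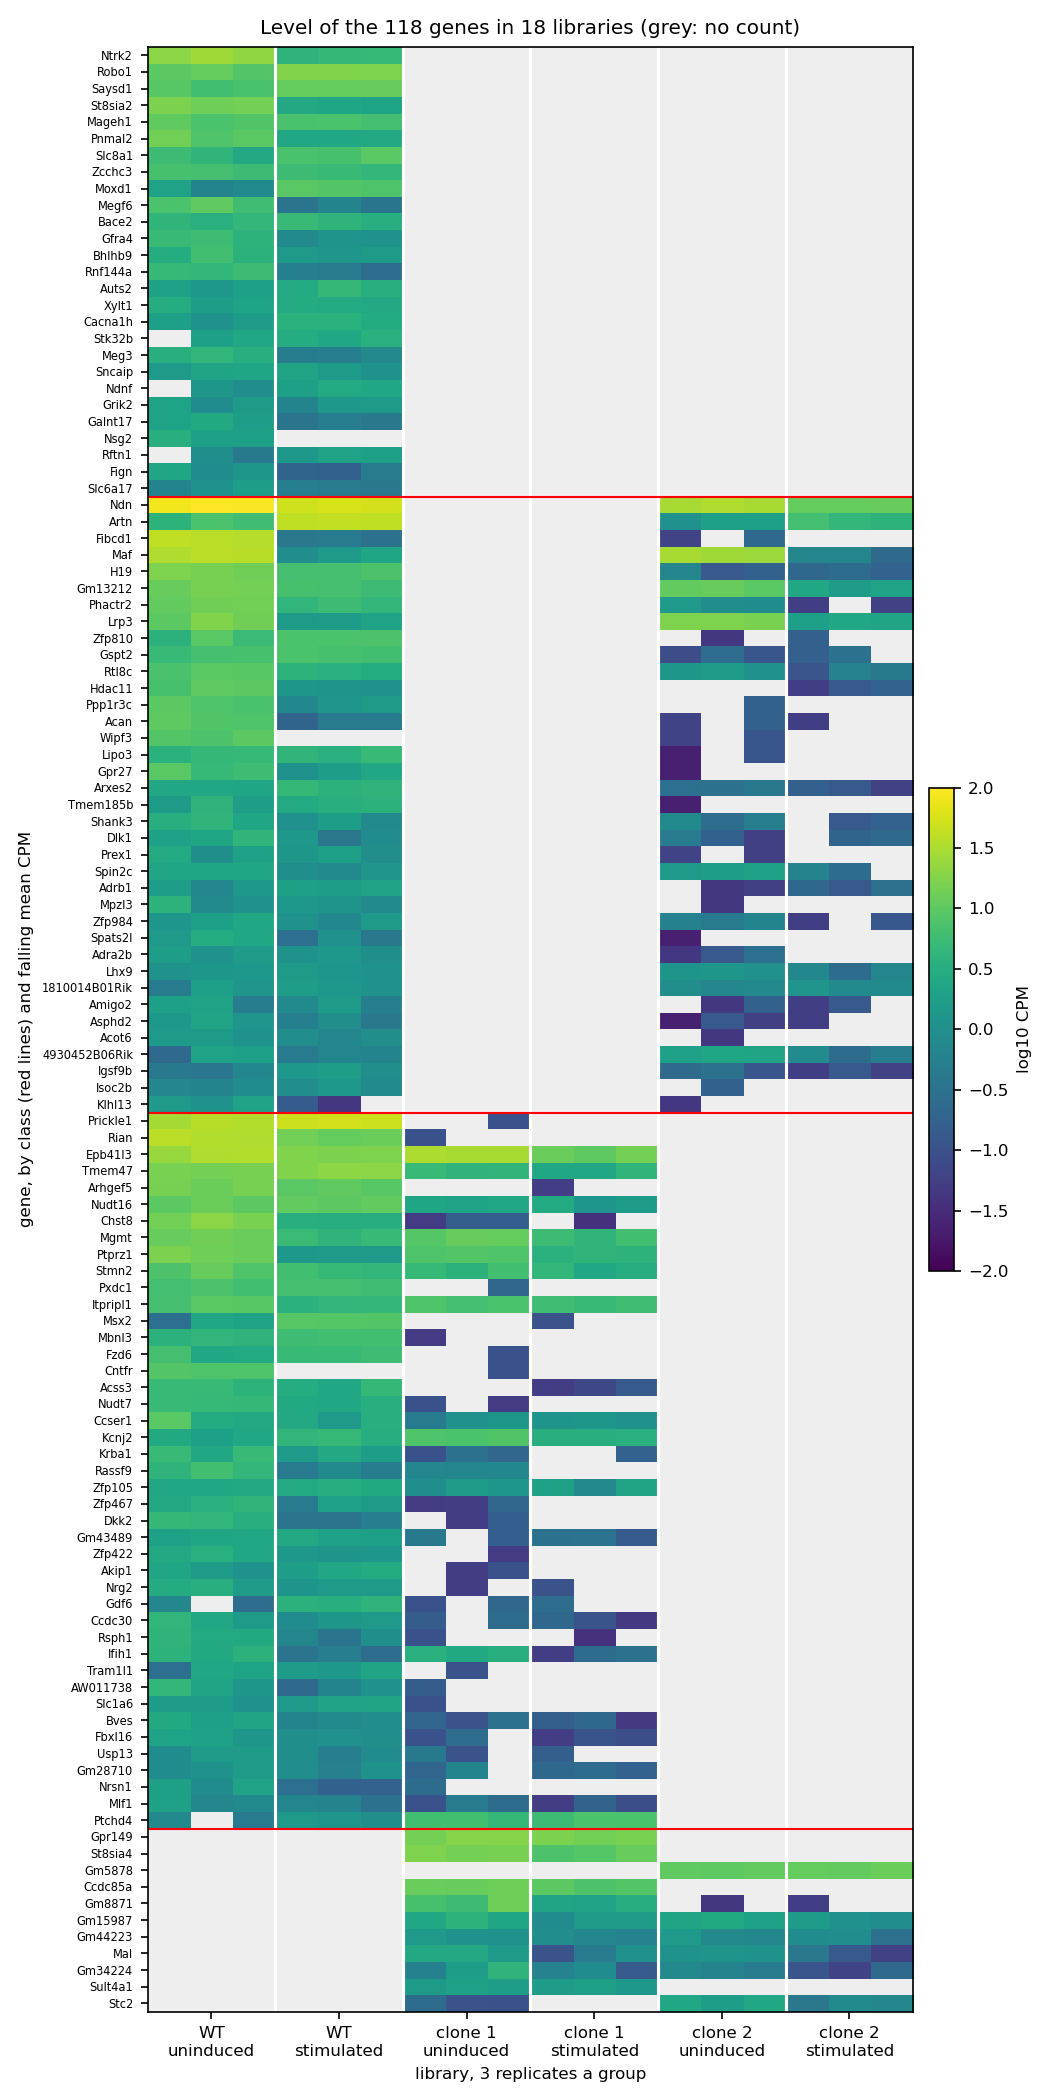
Level of each of the 118 genes (rows) in each of the 18 libraries (columns, 3 per group), as log10 of the TMM-scaled CPM; grey marks a library with no count and red lines part the 4 classes (27, 37, 43 and 11 genes). The first block is grey in all 12 clone libraries, the middle blocks are grey in 1 clone and only in part in the other, and the last is grey in the 6 WT libraries.

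The 27 genes silent in both clones included receptors and glycan enzymes. Ntrk2, the receptor tyrosine kinase for BDNF (chr13:58806569-59133970), was counted at 20.04, 27.1 and 21.8 CPM in the uninduced WT libraries and at 4.06, 4.67 and 4.78 in the stimulated ones, and at 0 in all 12 clone libraries. Measured against the floor it was at least 574-fold lower in clone 1 and at least 616-fold lower in clone 2. Robo1, a receptor for Slit guidance cues (chr16:72308306-73046095), stood at 9.73, 11.4 and 8.65 CPM uninduced and 17.6, 17.3 and 16.7 stimulated in WT, at least 566.5-fold above clone 1 and 607.6-fold above clone 2. Per kilobase of transcript the level was similar for both, 0.713 CPM per kb for Ntrk2 and 0.821 for Robo1. The polysialyltransferase gene St8sia2 (chr7:73939119-74013690) had 16.02, 13.2 and 14.4 CPM uninduced and 2.64, 2.25 and 2.12 stimulated, and Megf6, which encodes a protein with EGF-like repeats, 7.40, 10.4 and 5.95 and then 0.342, 0.648 and 0.361. The WT libraries of these 4 genes did not overlap with any clone library, where the rule fixed the counts at 0.

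The other genes of this class included intracellular proteins, enzymes and ion transporters. Saysd1 averaged 9.45 CPM over WT (3.76 CPM per kb) and was at least 395-fold lower in clone 1 and 424-fold lower in clone 2. Mageh1, a MAGE family gene on chromosome X, averaged 7.80 CPM and had the highest level per length of the 10 most abundant genes of this class, 5.53 CPM per kb. Slc8a1, the plasma membrane sodium-calcium exchanger, averaged 5.91 CPM, Zcchc3, a CCHC zinc finger protein that binds nucleic acids, 5.73, Pnmal2 6.51 and Moxd1, a monooxygenase related to dopamine beta-hydroxylase, 4.91. These 4 genes were at least 205-fold lower in clone 1 and at least 220-fold lower in clone 2. The class also held 2 further glycan enzymes, Xylt1, which starts glycosaminoglycan chains, and Galnt17, and the calcium channel subunit Cacna1h, the kainate receptor subunit Grik2 and the amino acid transporter Slc6a17. With Slc8a1 these make 4 of the 6 channel and transporter genes among all 107.

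The 37 genes silent in clone 1 only included the most abundant of all. Ndn encodes necdin, an imprinted MAGE protein expressed from the paternal copy (chr7:62346569-62350262). Its WT libraries held 82.5, 97.8 and 94.6 CPM uninduced and 51.2, 56.7 and 52.4 stimulated. Clone 1 had no count, at least 3030-fold lower, and clone 2 kept 29.6, 33.3 and 29.9 CPM uninduced and 11.4, 11.3 and 11.9 stimulated, or 29.3% of the WT mean.

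The other abundant genes of this class differed widely in what clone 2 kept. Maf, a bZIP transcription factor, was counted at 34.0, 39.2 and 37.5 CPM in uninduced WT cells and at 30.1, 26.8 and 25.3 in uninduced clone 2 (72.6% of WT over both treatments). Lrp3, of the LDL receptor family, stayed at 120% in clone 2 and Gm13212 at 63.2%. Artn, a GDNF family ligand, stayed at 13.5% and Phactr2, a regulator of protein phosphatase 1 and actin, at 6.41%. H19 kept 2.45%, and Fibcd1, a receptor for acetylated sugars, 0.257%, with 7 counts in clone 2 against 2402 in WT. The class therefore holds genes that clone 2 expressed at the WT level and genes that both clones had almost lost.

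Among the 43 genes silent in clone 2 only, the same spread was seen in clone 1. Prickle1, a core component of planar cell polarity (chr15:93499114-93595891), had 29.4, 36.9 and 34.1 CPM uninduced and 50.3, 52.9 and 48.8 stimulated in WT, none in clone 2 (at least 1885-fold lower), and 2 counts in all in clone 1. Rian, Arhgef5 and Chst8, which sulfates N-acetylgalactosamine on glycoproteins, had 2, 1 and 8 counts in clone 1 against 3013, 1541 and 1261 in WT. Epb41l3, a cytoskeletal linker of the protein 4.1 family, was kept instead, with 31.8, 29.7 and 29.9 CPM in uninduced clone 1 against 23.8, 33.7 and 34.3 in uninduced WT. Mgmt, which repairs O6-alkylguanine in DNA and is well known as a gene silenced by promoter methylation in tumours, had 8.91, 11.8 and 11.4 CPM in uninduced clone 1 and 11.9, 13.4 and 12.2 in WT. Its counts were 1093 in WT, 966 in clone 1 and 0 in clone 2, at least 387-fold lower. Tmem47 stayed at 21.5% in clone 1 and Nudt16, a Nudix hydrolase, at 19.2%.

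Loss in 1 clone only was thus often a matter of degree. Of the 37 genes silent in clone 1 only, 18 were under 5% of the WT level in clone 2, 12 between 5% and 50%, and 7 at 50% or more (median 5.68%). Of the 43 silent in clone 2 only, the counts in clone 1 were 23, 11 and 9 (median 4.8%). Only 1 to 3 counts separated 8 of the 37 and 15 of the 43 from the class silent in both, and with those included 50 of the 107 genes had at most 3 counts in each clone. The genes most fully kept in clone 1 were Ptchd4, of the patched domain family, at 774% of WT, the inward rectifier potassium channel gene Kcnj2 at 172% and Itpripl1 at 103%. In clone 2 they were 4930452B06Rik at 137% and Lrp3 at 120%. Ptchd4 rests on a low WT level, with 0.757, 0 and 0.457 CPM in the uninduced WT libraries against 6.15, 6.06 and 4.61 in clone 1.

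**Figure D2:**
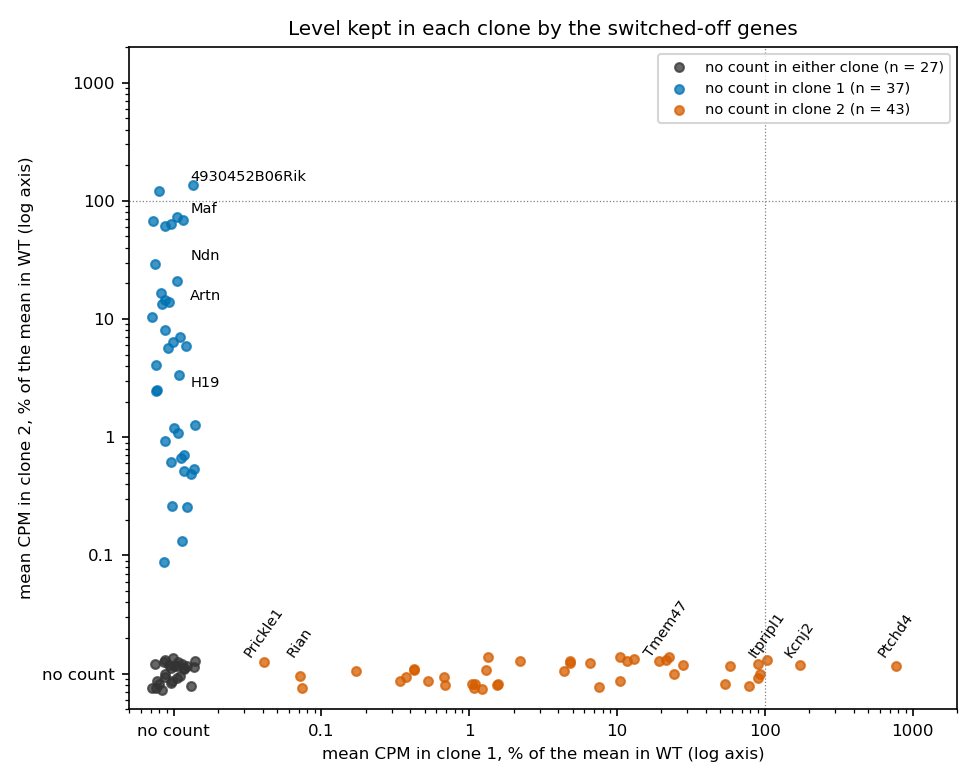
Mean CPM of each of the 107 switched-off genes in clone 1 (x axis) and clone 2 (y axis) as a percentage of the WT mean over both treatments, on log axes, with genes of no count set at the axis ends and spread slightly for sight; dotted lines mark 100%. Genes silent in 1 clone run from 0.041% (Prickle1) to above 100% of WT in the other, with Ptchd4 (774%) and 4930452B06Rik (137%) at the far ends.

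By function, 21 of the 107 genes were signalling receptors or ligands, 20 were cytoskeletal proteins or adaptors and 16 regulators of transcription, chromatin or RNA. A further 9 were metabolic or repair enzymes, 6 channels or transporters, 5 glycan enzymes or proteoglycans and 5 imprinted genes. The receptors and ligands were spread evenly, with 5 silent in both clones, 8 in clone 1 only and 8 in clone 2 only. They cover several pathways, among them neurotrophic signalling (Ntrk2, Gfra4, Artn, Cntfr), axon guidance (Robo1), Wnt signalling (Fzd6, Dkk2), adrenergic receptors (Adrb1, Adra2b) and BMP-type ligands (Gdf6). The groups were assigned by hand after the members were known.

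The 5 imprinted genes lie in 3 clusters. The Dlk1-Dio3 domain on chromosome 12 gave 3 of them. Dlk1, a Notch-like inhibitor of adipogenesis expressed from the paternal copy, and the maternally expressed long non-coding RNAs Meg3 and Rian lie within 141 kb (Dlk1 to Meg3 77665 bp, Meg3 to Rian 32214 bp). Rian was counted at 38.1, 34.4 and 33.2 CPM in uninduced WT cells and at 13.99, 11.3 and 12.8 in stimulated ones. It had no count in clone 2 and 2 counts in clone 1, both in 1 uninduced library. Meg3 had 3.20, 4.25 and 3.39 CPM in uninduced WT and none in either clone, and Dlk1 1.92, 2.25 and 4.16 CPM, none in clone 1 and 10.4% of WT in clone 2. Summed over the 6 genes of the domain that were checked, Rtl1, Mirg and Dio3 included, WT libraries held 41.4 to 44.6 CPM uninduced and 12.3 to 16.1 stimulated, and no clone library exceeded 0.535. The paternally expressed Dlk1 and the maternally expressed Meg3 and Rian were thus low or uncounted in both clones.

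In the other clusters some of the genes checked were still counted in the clones. Near Ndn, Ube3a, which in these cells gave 49.8 ± 5.02 CPM (SD, n = 3) in uninduced WT, was at 52.3 ± 2.78 in clone 1 and 51.8 ± 2.88 in clone 2. Peg12, paternally expressed like Ndn, had 3.69 ± 0.876 CPM in uninduced clone 1, 1.42 ± 0.627 in clone 2 and 6.66 ± 0.716 in WT. Against WT its log2 fold change was -0.85 in clone 1, under the fold threshold, and -2.15 in clone 2, where it was called lower. Stimulated cells of either clone had it called lower (-1.76 in clone 1, -4.25 in clone 2). Mkrn3, 67331 bp from Ndn, had 82 counts in WT, 109 in clone 1 and 35 in clone 2. In clone 1 it was not called, with log2 fold changes of 0.05 uninduced and 0.74 stimulated. H19, the maternally expressed RNA next to Igf2, had 17.1, 15.3 and 13.8 CPM in uninduced WT, none in clone 1 and 0.669, 0.133 and 0.174 in clone 2, while Igf2 itself had at most 11 counts in any group. Kcnq1ot1, in the neighbouring cluster, averaged 1.69 ± 1.51 CPM in uninduced WT, 1.56 ± 0.257 in clone 1 and 1.31 ± 0.55 in clone 2. The gene lists of these 3 clusters were drawn up after the values had been seen.

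The 11 switched-on genes fell into those of 1 clone and those of both. Gpr149, an orphan G protein-coupled receptor (chr3:62529077-62605140), had 14.7, 19.1 and 18.5 CPM in uninduced and 16.2, 14.3 and 15.7 in stimulated clone 1, at least 702-fold above WT, and no count in clone 2. St8sia4, the other polysialyltransferase gene beside St8sia2 (chr1:95587682-95667571), had 17.1, 14.8 and 15.4 CPM uninduced and 7.56, 8.78 and 11.7 stimulated in clone 1 only. WT cells thus carried counts of St8sia2 (1057) and none of St8sia4, clone 1 carried counts of St8sia4 (1543) and none of St8sia2, and clone 2 had none of either. Ccdc85a, with 1291 counts, and the cytosolic sulfotransferase gene Sult4a1, with 210, were also found in clone 1 only, and Gm8871 had 652 counts there against 2 in clone 2. Gm5878 was the mirror case, at 10.7, 10.1 and 10.9 CPM in uninduced clone 2 and 0 elsewhere among uninduced libraries, with 1476 counts in clone 2 in all.

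The other 5 were counted in both clones at lower levels. Gm15987 had 260 counts in clone 1 and 252 in clone 2, Gm44223, which lies 31224 bp away on chromosome 6, 119 and 127, Mal, a proteolipid of membrane rafts, 163 and 106, and Gm34224 159 and 63. Stc2, which encodes the secreted glycoprotein stanniocalcin 2, had 9 and 219. The rule used the sum over both clones, so it bears on how many of these genes can differ between the clones, and the calls by edgeR's quasi-likelihood test are given as a description. Here and below a gene was called where its Benjamini-Hochberg adjusted p was under 0.05 and its fold change passed 1 on the log2 scale in either direction. In uninduced cells 8 of the 11 differed, 6 higher in clone 1 and 2 higher in clone 2, where 8.67% of all 14317 genes tested differed (4.89% higher in clone 1 and 3.78% higher in clone 2). In stimulated cells 7 differed, 5 and 2, beside 9.98% of all genes (5.5% and 4.48%). Nothing is read from these shares. Gm8871 had 489 counts in uninduced clone 1 and 1 in uninduced clone 2, and 163 and 1 when stimulated. For Gm15987 and Gm44223 the libraries of the clones overlapped in both treatments.

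**Figure D3:**
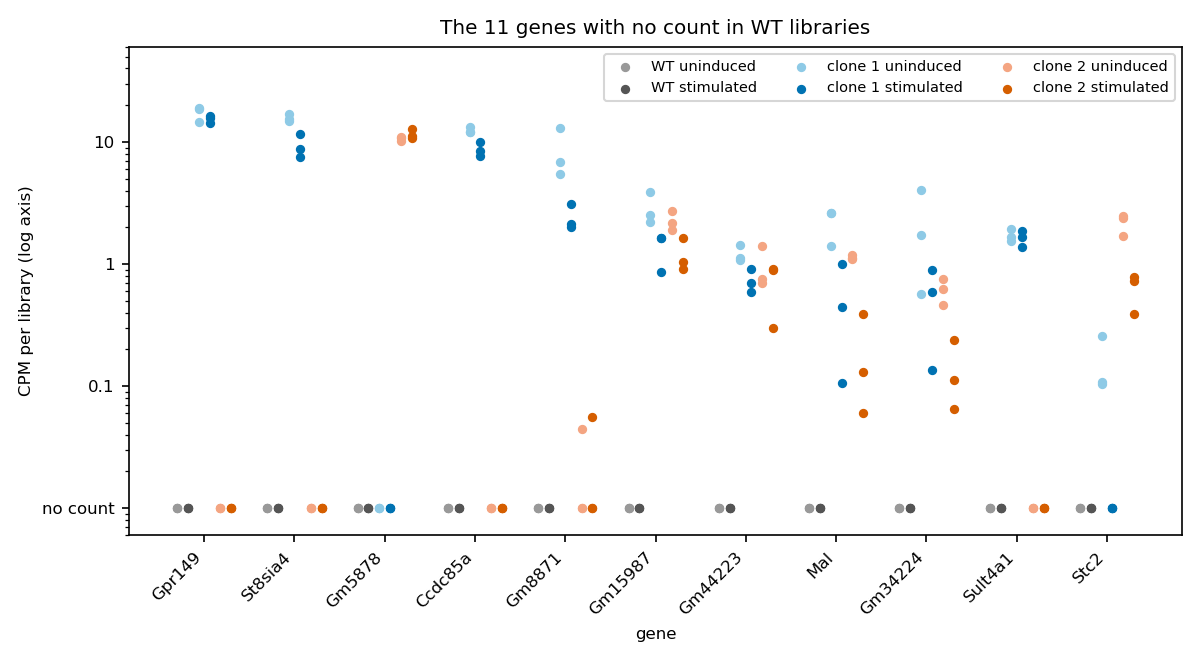
CPM of the 11 switched-on genes in each of the 18 libraries (log axis, 3 points per group; libraries with no count are set at the lowest tick). All 6 WT libraries are at no count by the rule, Gpr149, St8sia4, Ccdc85a and Sult4a1 appear in clone 1 only, Gm5878 in clone 2 only, and the points of Mal and Stc2 are lower in stimulated than in uninduced libraries of the same clone.

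Several of the switched-on genes were lower after stimulation. In clone 1, 5 of the 11 fell and none rose (16.7% of all genes tested changed, 5.95% higher and 10.7% lower). In clone 2, 3 fell and none rose (17.7%, with 6.46% higher and 11.2% lower). Gm5878 had no count in clone 1, and Gpr149, St8sia4, Ccdc85a and Sult4a1 had none in clone 2, where Gm8871 had almost none. These genes could show no response there, so nothing is read from the 2 shares against all genes. Mal fell in both, from 2.61, 2.63 and 1.40 CPM to 0.106, 0.443 and 1.00 in clone 1 (log2 fold change -2.07, SE 0.59, edgeR adjusted p = 0.00429) and from 1.11, 1.20 and 1.10 to 0.392, 0.131 and 0.0601 in clone 2 (-2.48, SE 0.71, edgeR adjusted p = 0.00421). The uninduced and stimulated libraries did not overlap in either clone. Stc2 fell in clone 2 from 2.39, 1.68 and 2.49 CPM to 0.392, 0.785 and 0.722 (-1.79, SE 0.53, edgeR adjusted p = 0.0061), and without stimulated clone 2 replicate 1 its adjusted p was 0.0534. In clone 1 it was called as well, on 9 uninduced counts and none stimulated. Gm8871 fell in clone 1 (-1.81, SE 0.36, edgeR adjusted p = 0.000127). Gm15987 in clone 1 (-1.04) and Gm34224 in both clones (-1.94 and -2.12) also passed, but these calls depended on single libraries. Gm15987 was lost without stimulated clone 1 replicate 1 (edgeR adjusted p = 0.121) or uninduced replicate 2 (edgeR adjusted p = 0.153). Gm34224 was lost in clone 1 without stimulated replicate 3 (edgeR adjusted p = 0.0819) or uninduced replicate 3 (edgeR adjusted p = 0.238), and in clone 2 without replicates 1 or 2 of either treatment (edgeR adjusted p from 0.0634 to 0.132). Gpr149 did not pass in clone 1 (-0.18, SE 0.17, edgeR adjusted p = 0.386), nor did Gm5878 in clone 2 (0.14, SE 0.20, edgeR adjusted p = 0.59).

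The difference between treatments in WT cells was not itself used to choose the genes that the clones lack. The rule asks for 0 counts in both treatments of a clone, however, so it may favour genes with a given direction of response. The counts of WT responses are therefore a description, and nothing is read from them against all genes. Of the 107 switched-off genes, 53 changed on stimulation of WT cells, 9 higher and 44 lower (49.5%), where 19.9% of all genes tested did (6.25% higher and 13.6% lower). Genes of low level were called more often. Among genes with a WT sum of 100 to 1000, 31.1% of 3191 changed, and of the 88 switched-off genes in that range 42 did, 8 higher and 34 lower (47.7%). The median log2 fold change was -0.81 against -0.04 over all genes. By class the calls were 15 of 27 for genes silent in both clones, 19 of 37 for those of clone 1 and 19 of 43 for those of clone 2.

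**Figure D4:**
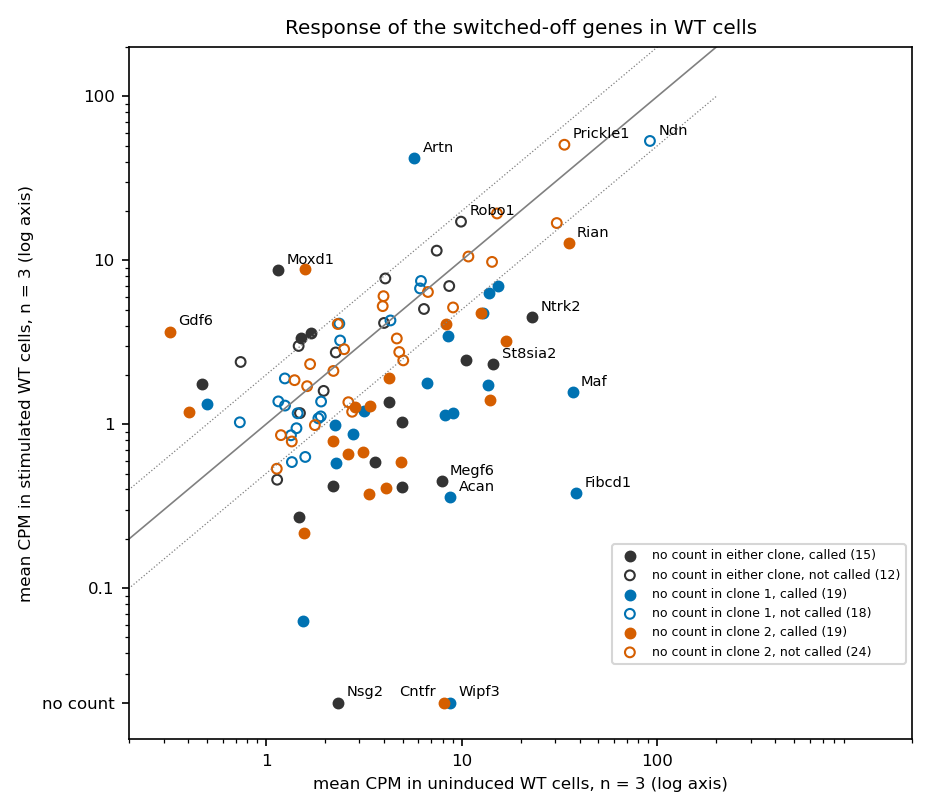
Mean CPM of the 107 switched-off genes in uninduced (x axis) and stimulated (y axis) WT cells, n = 3 libraries each, on log axes; filled points were called by edgeR (53 genes), open points were not, the solid line marks no change and the dotted lines a change of a factor 2. More filled points lie below the line (44) than above it (9), and Nsg2, Cntfr and Wipf3, which had no count after stimulation, lie on the lower edge.

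The falls included 3 genes that stimulated WT cells lost altogether. Wipf3, which binds WASP proteins and actin, went from 8.56, 7.71 and 9.83 CPM to 0, at least 191-fold lower. Cntfr, the receptor subunit for ciliary neurotrophic factor, went from 8.45, 7.92 and 7.97 CPM to 0 (at least 178-fold), and Nsg2, a neuronal endosomal protein, from 3.26, 1.83 and 1.91 to 0 (at least 51.2-fold). All 3 passed in edgeR, but Nsg2 did not with DESeq2 (adjusted p = 0.162). Each of the uninduced WT libraries held counts of these 3 genes and no stimulated one did.

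Further large falls were those of Fibcd1, from 40.9, 38.8 and 35.6 CPM to 0.391, 0.432 and 0.316 (log2 fold change -6.64, SE 0.26, edgeR adjusted p = 1.09e-16), and of Maf, from a mean of 36.9 to 1.57 CPM (-4.54, SE 0.20, edgeR adjusted p = 5.09e-16). Megf6 fell by 4.10 on the log2 scale (SE 0.44), Lrp3 by 2.97 (SE 0.21), St8sia2 by 2.64 (SE 0.25), Chst8 by 2.40 (SE 0.23), Ntrk2 by 2.35 (SE 0.20) and Pnmal2 by 2.08 (SE 0.30), all with an edgeR adjusted p of 2.98e-06 or less. In each of these the uninduced libraries lay above the stimulated ones without overlap. Of the 5 glycan enzymes and proteoglycans 4 fell, Acan, the proteoglycan aggrecan of cartilage, by 4.57 (SE 0.44, edgeR adjusted p = 1.54e-09). Mgmt fell by 1.39 (SE 0.18, edgeR adjusted p = 3.14e-07).

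The imprinted genes moved down as well. Meg3 fell by 2.60 (SE 0.51), Rian by 1.47 (SE 0.15) and H19 by 1.15 (SE 0.23), with edgeR adjusted p values of 0.000141, 8.96e-09 and 0.000133. Dlk1 fell by 1.69 (SE 0.59, edgeR adjusted p = 0.0156), a call lost without stimulated WT replicate 2 (adjusted p = 0.0965), stimulated replicate 3 (0.0526) or uninduced replicate 3 (0.111). Ndn had a log2 fold change of -0.78 (SE 0.08) and stayed under the fold threshold.

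The 9 rises were fewer but included secreted factors. Artn went from 3.90, 7.29 and 5.98 CPM to 41.5, 42.9 and 41.9 in WT (log2 fold change 2.87, SE 0.19, edgeR adjusted p = 2.22e-11). Gdf6, a BMP-type growth factor, went from 0.699, 0 and 0.267 to 3.67, 3.37 and 3.97 CPM (3.53, SE 0.78, edgeR adjusted p = 0.0005), a call that DESeq2 did not make (adjusted p = 0.14). Moxd1 went from 2.04, 0.629 and 0.800 CPM to 9.44, 8.64 and 7.94 (2.94, SE 0.40, edgeR adjusted p = 1.52e-06), and Msx2, a homeobox factor downstream of BMP signalling, from 0.291, 2.46 and 1.98 to 9.24, 8.90 and 8.39 (2.45, SE 0.48, edgeR adjusted p = 0.000298, DESeq2 adjusted p = 0.0667). The groups of these 4 did not overlap. By function the signalling receptors and ligands changed in 13 of 21 cases (4 higher, 9 lower), the transcription, chromatin and RNA regulators in 10 of 16 (2 and 8), the cytoskeletal proteins in 11 of 20 (1 and 10), the metabolic and repair enzymes in 3 of 9 (1 and 2), the other genes in 6 of 24 (0 and 6), and the channels and transporters in 1 of 6, beside 49.5% of the 107 and 19.9% of all genes tested. The last was the T-type calcium channel gene Cacna1h, which rose (1.15, SE 0.44, edgeR adjusted p = 0.0293). That call was lost without any 1 stimulated WT library (edgeR adjusted p = 0.0984, 0.106 and 0.0536) or without uninduced replicate 2 (0.97, edgeR adjusted p = 0.0867). Genes that stimulation left without a call included Prickle1 (0.60, SE 0.12), Robo1 (0.80, SE 0.18) and Nudt16 (-0.04, SE 0.21).

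Where the other clone kept enough counts of a gene, its response could be compared with that of WT. Of the 37 genes silent in clone 1 only, 15 changed on stimulation of clone 2, 3 higher and 12 lower (17.7% of all genes), and of the 43 silent in clone 2 only, 9 changed in clone 1, 1 higher and 8 lower (16.7% of all genes). Since 8 of the 37 and 15 of the 43 had only 1 to 3 counts in that clone, too few to show a response, these counts are set in part by the rule and nothing is read from them against all genes. Ndn fell in clone 2 (log2 fold change -1.42, SE 0.10, edgeR adjusted p = 1.26e-12), and so did Maf (-5.70, SE 0.25) and Lrp3 (-2.93, SE 0.21), while Artn rose (1.74, SE 0.25, edgeR adjusted p = 4.44e-06). In clone 1 Epb41l3 fell (-1.31, SE 0.14, edgeR adjusted p = 7.44e-09), as did Mgmt (-1.03, SE 0.18, edgeR adjusted p = 2.9e-05), which came to between -0.87 and -0.99 without stimulated replicate 2 or uninduced replicates 2 or 3, and Ifih1, a cytosolic sensor of double-stranded RNA (-3.82, SE 0.49, edgeR adjusted p = 2.2e-07).

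The response itself differed from that of WT for 7 of the 37 in clone 2 (1 higher, 6 lower), with a background of 7.85% (4.89% and 2.96%), and for 4 of the 43 in clone 1 (2 and 2), with a background of 8.81% (5.34% and 3.46%). Nothing is read from these counts against all genes either. The count of 7 became 3 without stimulated clone 2 replicate 3. Ptprz1, a receptor-type tyrosine phosphatase, fell from 16.1, 13.2 and 12.4 to 1.37, 1.47 and 1.40 CPM in WT and from 7.79, 8.53 and 7.97 to 3.57, 4.20 and 3.83 in clone 1, and the responses differed by 2.23 on the log2 scale (SE 0.27, edgeR adjusted p = 3.59e-07). For Kcnj2 the directions were opposite, from 2.68, 1.78 and 2.52 to 4.35, 4.79 and 3.11 CPM in WT, which stayed under the fold threshold, and from 7.84, 7.40 and 8.13 to 3.19, 3.17 and 3.42 in clone 1, where it fell (difference -2.07, SE 0.34, edgeR adjusted p = 2.66e-05). Phactr2 fell more in clone 2, from 1.47, 0.930 and 0.870 to 0.056, 0 and 0.0601 CPM, than in WT, from 11.01, 13.5 and 14.1 to 4.35, 5.53 and 4.37 (difference -3.21, SE 0.73, edgeR adjusted p = 0.00115).

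Neighbouring genes address whether single genes or stretches of chromosome were silent. Within 100 kb of the genes silent in clone 1 lay 113 other tested genes, and 17 of them differed from WT in uninduced clone 1, 1 higher and 16 lower (where 15.1% of all genes tested differed, 6.32% higher and 8.73% lower). In stimulated clone 1 it was 31, 4 higher and 27 lower (27.4% against 19%, of which 9.42% higher and 9.6% lower). Around the genes silent in clone 2, 24 of 120 differed in uninduced cells, 6 higher and 18 lower against a background of 15.1% (5.54% higher and 9.56% lower), and 21 in stimulated cells, 3 and 18 (17.5% against 16.9%, of which 7.95% higher and 8.94% lower). Most neighbours were not called in either clone, and most of those called were lower. Genes near those silent only in the other clone were called in similar shares in clone 2. In clone 1 their calls were split more evenly between higher and lower, and a smaller share was called in stimulated cells. In clone 1, 16 of 92 such genes were called in uninduced cells (7 higher, 9 lower) and 14 in stimulated cells (5 and 9). In clone 2 it was 15 of 85 (3 and 12) and 17 (3 and 14). Whether the counts near genes silent in the clone itself differ from these was not tested. The comparison is also not clean, since 23 of the 43 genes silent in clone 2 only were under 5% of the WT level in clone 1. In clone 2 this held for 18 of the 37 genes silent in clone 1 only.

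A few neighbours were nearly as silent as the genes beside them. Sox12, a SoxC transcription factor 13892 bp from Zcchc3, had 1325 counts in WT, 3 in clone 1 and 60 in clone 2. Scrn1, which overlaps Wipf3, had 4717, 20 and 3633, and Plagl1, an imprinted zinc finger gene 76023 bp from Phactr2, 1571, 41 and 1077. Lamc3, a laminin chain gene 41286 bp from Fibcd1, had 574, 4 and 17, and Acot1, 82283 bp from Acot6, a related acyl-CoA thioesterase gene, 1355, 3 and 1. In clone 2, Ccdc8, 43880 bp from Pnmal2, had 51 counts against 1947 in WT and 1172 in clone 1. Hgf, the hepatocyte growth factor gene, overlaps Gm43489 and had 11744 counts in WT, 1742 in clone 1 and 1 in clone 2. Since 48.7% of the exonic bases of Gm43489 are shared with another gene and the strand setting is not given, its own counts cannot be parted from those of Hgf. In all, 17 of the 118 genes share more than 5% of their exonic bases with another gene.

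**Figure D5:**
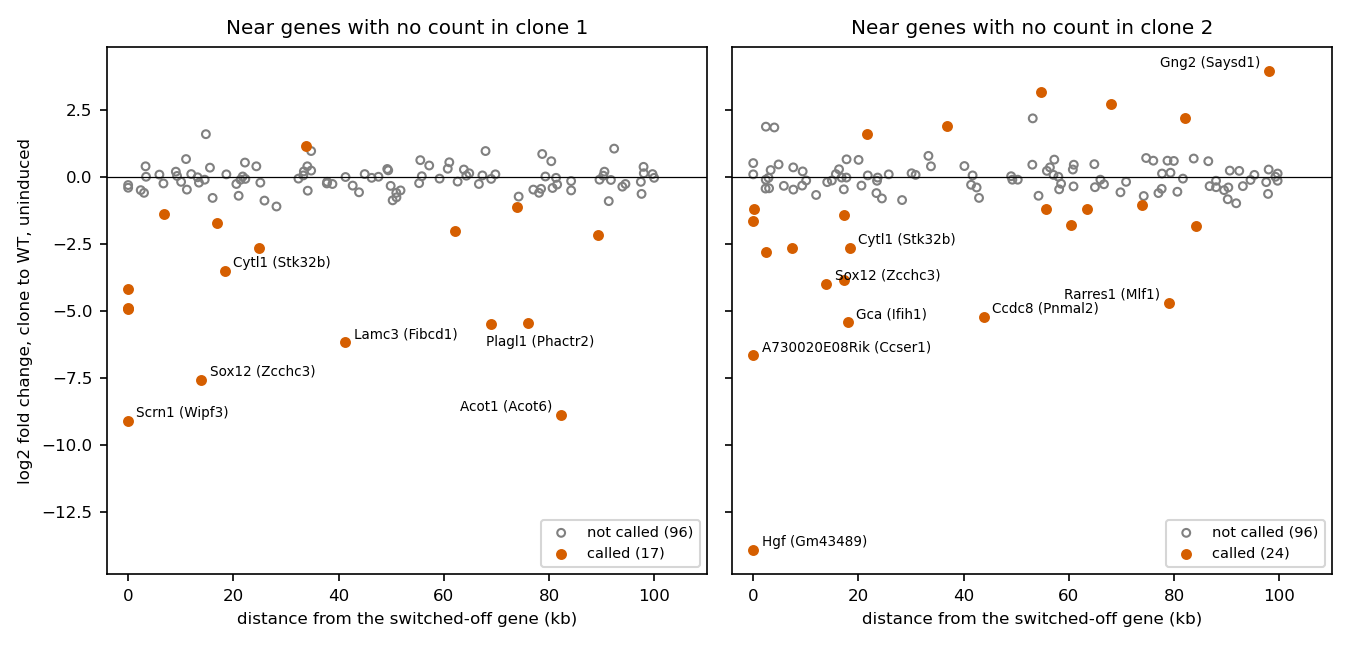
Fitted log2 fold change of the tested genes within 100 kb of a switched-off gene, in uninduced clone 1 (left, 113 genes) and clone 2 (right, 120 genes) relative to WT, by distance from that gene in kb (0 where they overlap); filled points were called by edgeR, and names give the neighbour and, in brackets, the switched-off gene. Most points lie near 0 at all distances, 16 of 17 called points on the left and 18 of 24 on the right lie below it, and values for genes with few counts in a clone depend on the fit.

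The members themselves were mostly scattered. Apart from the Dlk1-Dio3 genes, 2 pairs lay within 100 kb of each other. Krba1, with a KRAB-A domain, and the zinc finger gene Zfp467, both on chromosome 6, are 7916 bp apart, and both were silent in clone 2 and down to 16 and 6 counts in clone 1 against 398 and 306 in WT. The second pair is Gm15987 and Gm44223. Among wider pairs, Auts2 and Galnt17 on chromosome 5 are 128836 bp apart and were both silent in both clones, and Bhlhb9 and Arxes2 on chromosome X are 102743 bp apart. Chromosome X held 9 switched-off genes of 414 with a WT sum of at least 100 (2.17%) and chromosome 6 held 10 of 629 (1.59%) together with 4 of the 11 switched-on genes. On the autosomes the share was lowest for chromosomes 11 (0.202%) and 8 (0.294%), and over all chromosomes it was 0.855%.

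Few genes of the machinery that silences chromatin passed both thresholds, though many differed by less than the fold threshold. Of 45 such genes (DNA methyltransferases and demethylases, Polycomb proteins, histone methyltransferases, deacetylases and cofactors), 3 differed from WT in uninduced clone 1 and 1 in uninduced clone 2 (6.67% and 2.22%, background 15.1% in each), and 4 in each clone when stimulated (8.89%, background 19% and 16.9%). At an edgeR p under 0.05 before adjustment and with no fold threshold, it was 25 and 27 uninduced, and 34 and 30 stimulated. The share of all genes at that level is not given, so nothing is read from these counts. The list does not hold the histone deacetylase gene Hdac11, which is itself a switched-off gene with no count in clone 1 and few in clone 2. Zfp57, a KRAB zinc finger protein that keeps methylation at imprinted regions, was the 1 gene of the list called lower, past both the p and the fold threshold, in both clones in both treatments. The histone deacetylase gene Hdac1 (log2 fold changes -0.72 and -1.10 in uninduced and stimulated clone 1, -0.86 and -0.94 in clone 2) and the demethylase gene Kdm5b (-1.07 and -1.43, -0.40 and -0.41) passed the p threshold in all 4 comparisons and the fold threshold in part of them. Zfp57 averaged 3.61 ± 1.47 CPM (SD, n = 3) in uninduced WT, 0.748 ± 0.0733 in clone 1 and 0.424 ± 0.0996 in clone 2 (log2 fold changes -2.27 and -3.12, edgeR adjusted p = 2.83e-05 and 4.05e-07). In stimulated cells it averaged 3.17 ± 0.211, 0.308 ± 0.277 and 0.161 ± 0.0384 CPM. Ezh1, a catalytic subunit of Polycomb complex PRC2, was higher in clone 1 in both treatments and in stimulated clone 2 (log2 fold changes 1.16, 2.63 and 1.97), and had 0.81 in uninduced clone 2, under the fold threshold. In stimulated clone 2, Uhrf1 was called lower (-1.15, edgeR adjusted p = 8.74e-12) and Tet2 higher (1.49, edgeR adjusted p = 1.58e-07). Neither passed the fold threshold in the other comparisons with WT. Dnmt1, the maintenance DNA methyltransferase, averaged 44.7 ± 3.79 CPM in uninduced WT, 59.8 ± 3.3 in clone 1 and 63.7 ± 3.78 in clone 2, and no comparison passed the fold threshold.

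Most promoters of the switched-off genes were rich in CpG, as were most of those of other expressed genes. A 300-base window (250 before and 50 after the RefSeq start) was found for 88 of the 118 genes. It was rich in CpG (GC content above 50% and an observed to expected CpG ratio above 0.6) in 54 of 83 switched-off genes (65.1%), against 72.1% of 9229 genes with a WT sum of at least 100 and 33.9% of all 27025 promoters. The share was 14 of 21 for the genes silent in both clones, 17 of 28 and 23 of 34 for those silent in 1 clone, and 3 of 5 among the switched-on genes. The core forkhead sequence GTAAACA, searched on both strands, was present in 4 of the 83 windows (4.82%), in 2.41% of those of expressed genes and in 3.52% of all. TATAAA was present in 6.02%, 6.63% and 14.2%, and CACGTG in 9.64%, 10.5% and 7.24%.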

How the data were processed

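Poly(A) RNA of 18 libraries (6 groups of 3) was sequenced, and the authors mapped the reads to mm10 with HISAT2, per the labels. The deposited values are raw read counts for 54532 genes. For the counting program, annotation release and strand setting, no source used here gives a name, so reads of overlapping genes may be shared. All 18 sample columns were mapped to their labels, and no column was left over. Totals ran from 15576685 to 42005596 counts.

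The genes, the functional groups and the gene lists were chosen with earlier results of these data known. Counts were analysed with edgeR 4.0.16 in R 4.3.3 (filterByExpr by group at a minimum count of 10, TMM, robust quasi-likelihood fit over all 6 groups), which tested 14317 genes. A gene was called at a Benjamini-Hochberg adjusted p under 0.05 with a log2 fold change past 1 in either direction. Each SE of a log2 fold change is its absolute value divided by the square root of the quasi-likelihood F statistic. It is therefore approximate, most of all where a group has few or no counts. CPM were computed with TMM-scaled library sizes, and a genotype or group without counts was given a floor of 3 counts, which covers counting error only. The script was tested on simulated data. Replicates are libraries of 1 WT culture line or 1 clone, so p-values measure only the spread between these libraries, which may be technical.

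The genes described were the 10 most abundant silent in both clones, the 8 most abundant silent in each clone alone, the 10 most abundant switched on, members of 1 class within 100 kb of each other, the 3 largest rises and falls, and up to 3 genes on each side of a threshold. All others named were chosen after their values were seen. Gene positions are those of the count table, whose coordinates equal GENCODE M21 for 53499 of 54409 shared identifiers. Promoters are from RefSeq, build GRCm38.p6. Alternatives were DESeq2 1.42.0 (Wald test, and its size factors in edgeR), no filter, no fold threshold, fits to the compared groups alone, a block for replicate number, other windows and thresholds, and each library left out in turn. Same-numbered libraries of different groups did not deviate together (median r of their deviations -0.00205 over 45 pairs, none over 0.1), so the numbers were not taken as pairs. No pair of replicates agreed within sampling noise (chi-square per degree of freedom 3.13 to 14.7 over 18 pairs).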

Additional observations from a re-analysis of the deposited data

Results flagged for a closer look

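For 11 genes silent in 1 clone, the response to stimulation in the clone that kept counts differed from that of WT by a test of the difference itself (edgeR's quasi-likelihood test, Benjamini-Hochberg adjusted over all genes). Values are the response in the clone minus that in WT on the log2 scale, and the numbers of alternatives refer to the 23 fits run for each gene beside the one reported.

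Of the genes silent in clone 1, 6 had a lower and 1 a higher response in clone 2 than in WT. Phactr2 differed by -3.21 (SE 0.73, edgeR adjusted p = 0.00115) and Gm13212 by -1.23 (SE 0.27, edgeR adjusted p = 0.000712), each called in all 23 alternatives. Gm13212 went from 10.8, 11.7 and 9.33 to 2.52, 1.64 and 2.04 CPM in clone 2. Artn differed by -1.13 (SE 0.32, edgeR adjusted p = 0.0104), and missed only the fold threshold in 3 alternatives. Maf differed by -1.16 (SE 0.39, edgeR adjusted p = 0.0249), and the call was lost without stimulated clone 2 replicate 3 (edgeR adjusted p = 0.137) or stimulated WT replicate 3 (edgeR adjusted p = 0.136). Arxes2 differed by -2.19 (SE 0.71, edgeR adjusted p = 0.0196), lost without stimulated clone 2 replicate 3 (edgeR adjusted p = 0.0704), and Igsf9b by -2.83 (SE 1.03, edgeR adjusted p = 0.0377), called in 14 of 23. Both sizes rest on few counts in clone 2. Arxes2 had 13, 7 and 7 uninduced and 3, 2 and 1 stimulated, and Igsf9b 11, 7 and 2 and then 1, 2 and 1. Hdac11 differed by 7.39 (SE 1.33, edgeR adjusted p = 0.000116) in all 23, but clone 2 held 6 counts of it in all, each in a stimulated library, so the size depends on the fit.

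Of the genes silent in clone 2, the response in clone 1 was lower for Kcnj2 (-2.07, SE 0.34, edgeR adjusted p = 2.66e-05) and Rassf9 (-3.92, SE 1.35, edgeR adjusted p = 0.029) and higher for Ptprz1 (2.23, SE 0.27, edgeR adjusted p = 3.59e-07) and Acss3 (4.50, SE 1.57, edgeR adjusted p = 0.0313). Kcnj2 and Ptprz1 were called in all 23 alternatives. Rassf9 had 41 counts in uninduced and none in stimulated clone 1, and its call was lost without any 1 of the stimulated clone 1 libraries (edgeR adjusted p = 0.0557, 0.0808 and 0.0648) or stimulated WT replicate 2 (0.0547). Acss3 had 6 counts in stimulated and none in uninduced clone 1, and was lost without any 1 of the uninduced clone 1 libraries (edgeR adjusted p = 0.0679, 0.0649 and 0.0664) or stimulated replicate 3 (0.0825).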

How the results depend on the processing

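The number of genes in a class depended on the rule. Genes silent in both clones numbered 44 at a WT sum of at least 50 and 62 with up to 3 counts allowed in a clone, those silent in clone 1 only 24 at a WT sum of at least 200 and 56 with up to 3 counts, and switched-on genes 25 and 6 at a clone sum of at least 100 and 400 and 23 with up to 3 counts in WT. Without 1 library at a time the classes held 24 to 32, 33 to 50, 38 to 52 and 8 to 14 genes. Switched-off genes called in the WT response numbered 43 to 54 without 1 library, 49 with DESeq2 and 63 without the fold threshold. The responses kept in clones 2 and 1 numbered 12 to 16 and 6 to 10, the differing responses 3 to 7 and 3 to 6 (3 in clone 2 without its stimulated replicate 3), and the calls of switched-on genes 4 to 5 and 2 to 3, with 3 in clone 1 when only the groups compared were fitted. Called neighbours, in uninduced and stimulated clone 1 and then clone 2, were 55, 80, 69 and 65 without the fold threshold, 11, 16, 14 and 12 within 50 kb and 36, 60, 38 and 31 within 250 kb, and ranged over 18 to 20, 28 to 31, 20 to 26 and 18 to 23 without 1 library. Calls among the silencing genes, in the same order, were 22, 32, 25 and 29 without the fold threshold. With the replicate number as a block, 50 WT responses, 14 and 9 kept responses, 6 and 5 differing responses and 17, 31, 24 and 21 neighbours were called, all within a factor 1.5 of the values without it. Over the single genes named by rule, 1253 alternative values kept their direction and side of the threshold, 22 no longer passed, 5 newly passed and none reversed. Depth limits the zeros: 3 counts over the 6 libraries of a genotype are 0.0223 to 0.0239 CPM, and 50 of the 107 switched-off genes had at most 3 counts in each clone, against the 62 above when neither clone has to be at 0.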

Other observations

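Several genes missed the rule by a single count. Tenm3, a teneurin adhesion receptor, had 7993 counts in WT, 81 in clone 1 and 1 in clone 2, and Fzd9, a Wnt receptor, 3979, 1 and 1365. On the other side, Serpina3k, a secreted serine protease inhibitor, had 1 count in WT, 5923 in clone 1 and 1012 in clone 2. The cytochrome P450 gene Cyp3a13 had 1, 573 and 1159 counts, and Gm5152 had 1, 479 and 3. Below the minimum for switched-on genes lay Folh1, with 0 counts in WT, 2 in clone 1 and 184 in clone 2, Cyp3a11, with 0, 153 and 2, and Rnase2b, with 0, 44 and 105.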
